A study of Homo sapiens with 28 samples.

Results

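The circadian clock genes PER1, PER2, PER3, CRY1, CRY2, CLOCK, NR1D1, NR1D2, DBP and BHLHE40 were followed over a time course of MYCN induction in neuroblastoma cells. They were taken by the gene symbol of the platform annotation, which gave 25 probe sets for 10 genes, of 54675 probe sets on the array, whose single-gene probe sets cover 19775 genes. The set was chosen by the PER2 signals of the MYCN line, which are among the earliest and steadiest rises after induction and are given below as a description, without a test. The cells were SK-N-AS, a human neuroblastoma line in wide use. The MYCN line carried a tetracycline-inducible MYCN transgene, and 3 arrays were available at each of the times 0, 4, 8, 24, 48, 96 and 192 after doxycycline. The mock line was SK-N-AS with the tetracycline repressor vector pcDNA6TR, labelled mock for MYCN expression. It received doxycycline too, and had 1 array at each of these times. The medium of both lines was DMEM with 10% fetal calf serum. The labels give the times without a unit, do not say whether the lines are single clones, and do not tie the 3 arrays of a time to separate cultures. The p-values may therefore measure technical spread.

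The circadian clock is a feedback loop of transcription that runs in most cells, cultured ones included. CLOCK and its partner BMAL1 (the platform's ARNTL) bind DNA elements called E-boxes and switch on the period genes (PER), the cryptochrome genes (CRY), the REV-ERB receptors NR1D1 and NR1D2, and outputs such as DBP and BHLHE40. PER and CRY proteins return to the nucleus and repress CLOCK and BMAL1, while REV-ERB receptors repress, and ROR receptors activate, the BMAL1 gene. MYCN is itself a transcription factor that, with its partner MAX, binds the canonical E-box.

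The induction was seen on the MYCN probe set, which read 3064.9 to 3272.6 in the MYCN line at time 192, against 69.4 to 103.4 in that line at time 0, and 1.6 to 3 on all 7 mock arrays. Signals are in the units of the array software after each array was scaled to a common trimmed mean. Of the marker genes of neuroblastoma cell states, all 6 mesenchymal markers had a median signal above the filter of 12.8 in both lines, but only 3 of 6 noradrenergic markers did in the MYCN line and 4 of 6 on the mock arrays. PHOX2A, a noradrenergic marker, had a median of 4.3 in the MYCN line against 738.9 on the mock arrays. PTPRC, the leukocyte antigen CD45, had 13.7 in the MYCN line against 227.4 on the mock arrays. Markers also moved within the MYCN line. At time 192, limma called 1 of the 6 mesenchymal markers higher than at time 0 (CD44, 1.37 log2 units, adjusted p = 0.00273) and 2 lower (FN1, -2.99, 4.37e-07, and PRRX1, -0.58, 0.0467). Of the 4 noradrenergic markers tested, 1 was higher (GATA3, 0.39, limma adjusted p = 0.0239) and 1 lower (CHGA, -3.06, 0.0398), and PTPRC was lower (-2.99, 0.00274). The summed signal of the mesenchymal list was 8835.8 to 9486.5 at time 192 against 10303.5 to 11107.9 at time 0, with 7095.5 to 8344.4 on the mock arrays. The noradrenergic sum was 385.1 to 495.9 at time 192 against 364.1 to 460.7 at time 0, with 1565.9 to 2305.7 on the mock arrays. In the MYCN line, 1 gene made up most of each sum, so the sums say little about dimmer markers such as CHGA. VIM read 4891.1 to 5553.8 at time 192 and 5645.2 to 6306.7 at time 0. GATA3 read 339 to 458.1 and 269.5 to 350.9 at these times. The part of these markers in the changes of the clock genes was not tested. The lines also differed at time 0, when 33.1% of the tested genes read higher on all 3 MYCN-line arrays than on the mock array, and 33.4% read lower. The labels name no batch, but the level of the bioD hybridisation control split the arrays into 2 sets, with replicates 1 and 2 of the MYCN line at 1544 to 1941 and replicate 3 together with the mock arrays at 2322 to 2770. In a bulk extract, fewer cells with a transcript and less transcript per cell cannot be told apart.

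For the members of the set with a probe set called higher in the MYCN line, those shared with another gene included, for PER2, and for their relative BHLHE41, the 250 bases before the gene start are shown, since E-boxes are the elements through which CLOCK and BMAL1 act. The sequences are those of RefSeq on GRCh38.p14, written 5′ to 3′ on the strand of the gene, with matches to a searched motif in capitals. The searched motifs were the E-box CACGTG, the related E′-box CACGTT, the cAMP response element TGACGTCA and the D-box TTATGTAA, each on both strands. The windows are PER2 at chr2:238288611-238288860 (minus strand), CRY1 at chr12:107093550-107093799 (minus), PER1 at chr17:8152405-8152654 (minus), PER3 at chr1:7784041-7784290 (plus, the one of its 2 windows with a match), NR1D1 at chr17:40100590-40100839 (minus), BHLHE40 at chr3:4979187-4979436 (plus) and BHLHE41 at chr12:26125038-26125287 (minus).
PER2: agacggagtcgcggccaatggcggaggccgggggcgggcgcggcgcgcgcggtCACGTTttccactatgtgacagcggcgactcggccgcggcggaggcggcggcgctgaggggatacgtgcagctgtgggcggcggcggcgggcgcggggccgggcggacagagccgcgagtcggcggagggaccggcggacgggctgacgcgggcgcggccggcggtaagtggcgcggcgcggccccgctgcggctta
CRY1: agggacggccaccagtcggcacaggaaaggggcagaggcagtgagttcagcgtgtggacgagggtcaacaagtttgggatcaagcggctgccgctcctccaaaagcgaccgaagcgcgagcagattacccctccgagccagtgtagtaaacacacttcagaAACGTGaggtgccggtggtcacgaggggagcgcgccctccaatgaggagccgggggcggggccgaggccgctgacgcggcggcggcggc
PER1: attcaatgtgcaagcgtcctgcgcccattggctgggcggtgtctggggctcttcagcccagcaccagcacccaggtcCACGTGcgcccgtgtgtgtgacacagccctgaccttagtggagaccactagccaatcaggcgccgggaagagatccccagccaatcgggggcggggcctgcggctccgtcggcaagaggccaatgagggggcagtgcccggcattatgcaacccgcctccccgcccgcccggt
PER3: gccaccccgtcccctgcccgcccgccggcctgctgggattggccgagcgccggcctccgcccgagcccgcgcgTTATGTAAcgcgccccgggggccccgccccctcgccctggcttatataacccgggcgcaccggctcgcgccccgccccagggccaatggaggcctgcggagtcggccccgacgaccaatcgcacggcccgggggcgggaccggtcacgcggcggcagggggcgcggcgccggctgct
NR1D1: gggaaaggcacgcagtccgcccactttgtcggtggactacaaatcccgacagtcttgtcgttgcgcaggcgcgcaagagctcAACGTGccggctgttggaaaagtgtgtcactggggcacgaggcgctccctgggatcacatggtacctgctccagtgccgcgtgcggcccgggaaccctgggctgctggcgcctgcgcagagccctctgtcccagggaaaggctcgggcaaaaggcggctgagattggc
BHLHE40: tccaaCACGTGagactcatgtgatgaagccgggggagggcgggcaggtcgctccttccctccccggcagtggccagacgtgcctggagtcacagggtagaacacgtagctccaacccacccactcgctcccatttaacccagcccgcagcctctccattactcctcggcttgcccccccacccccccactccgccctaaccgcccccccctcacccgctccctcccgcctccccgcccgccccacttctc
BHLHE41: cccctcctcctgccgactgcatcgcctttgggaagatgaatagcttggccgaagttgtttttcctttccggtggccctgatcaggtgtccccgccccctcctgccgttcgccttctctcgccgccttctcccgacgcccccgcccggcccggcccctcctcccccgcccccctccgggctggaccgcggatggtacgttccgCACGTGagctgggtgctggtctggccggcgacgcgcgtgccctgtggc

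The PER2 window holds CACGTT with its first base 197 bases before the start, and the CRY1 window holds the same element on the other strand, AACGTG, at 89 bases, as does the NR1D1 window at 168 bases. The E-box CACGTG stands at 173 bases in PER1, at 245 bases in BHLHE40 and at 48 bases in BHLHE41. The PER3 window holds a D-box, the element bound by DBP, at 177 bases. All 10 members had a window, 14 windows in all. Of these members, 3 held the E-box (PER1, NR1D2 and BHLHE40), 5 the E′-box (PER2, CRY1, CRY2, CLOCK and NR1D1), 2 the D-box (PER3 and NR1D2) and 0 the cAMP response element. Over 35116 RefSeq windows of the same length, 6.34% held the E-box, 4.55% the E′-box, 0.834% the D-box and 1.65% the cAMP response element. These shares are per window, and of the 14 member windows 3, 5, 2 and 0 held a match, in the same order. A match is a run of letters and not a measured binding site.

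PER2 encodes a core repressor of the loop. Its bright probe set read 63.8, 65.2 and 60.7 in the MYCN line at time 0, then 94.9, 73.3 and 88.5 at time 4, and 132.2, 159.4 and 182.6 at time 8. By time 24 it read 222.2, 226.9 and 227.7, followed by 236.9, 212.9 and 205.3 at time 48, and 272.5, 259.2 and 257.8 at time 96. At the last time, 192, the arrays read 309.9, 277.6 and 344.8. Each time lay wholly above the one before it except time 48, whose arrays overlapped those of time 24. The mock arrays read 60.1, 68.4, 79.4, 78.5, 53.8, 77.7 and 62.4 over the same times, so the 2 lines started at a like level and the MYCN line lay above every mock array from time 8 on. The log2 change from time 0 in the MYCN line was 0.43, 1.31, 1.84, 1.79, 2.06 and 2.29 at times 4 to 192 (SE 0.12 each), a 4.90-fold difference at the last time. The mean was 310.8 ± 33.6 at time 192 and 63.2 ± 2.3 at time 0 (SD, n = 3 each). Ranked by the size of a positive change among 11865 tested genes, PER2 stood at place 313 at time 4, then at 15, 10, 13, 16 and 14. The mock line was not used to choose the set, and there the PER2 slope over the 7 times was -0.00 log2 units per time step (SE 0.04, limma adjusted p = 0.99). A second PER2 probe set was dim, at 0.5 to 20.7 on MYCN-line arrays and 1.3 to 13.5 on mock arrays, and did not pass the filter.

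**Figure D1:**
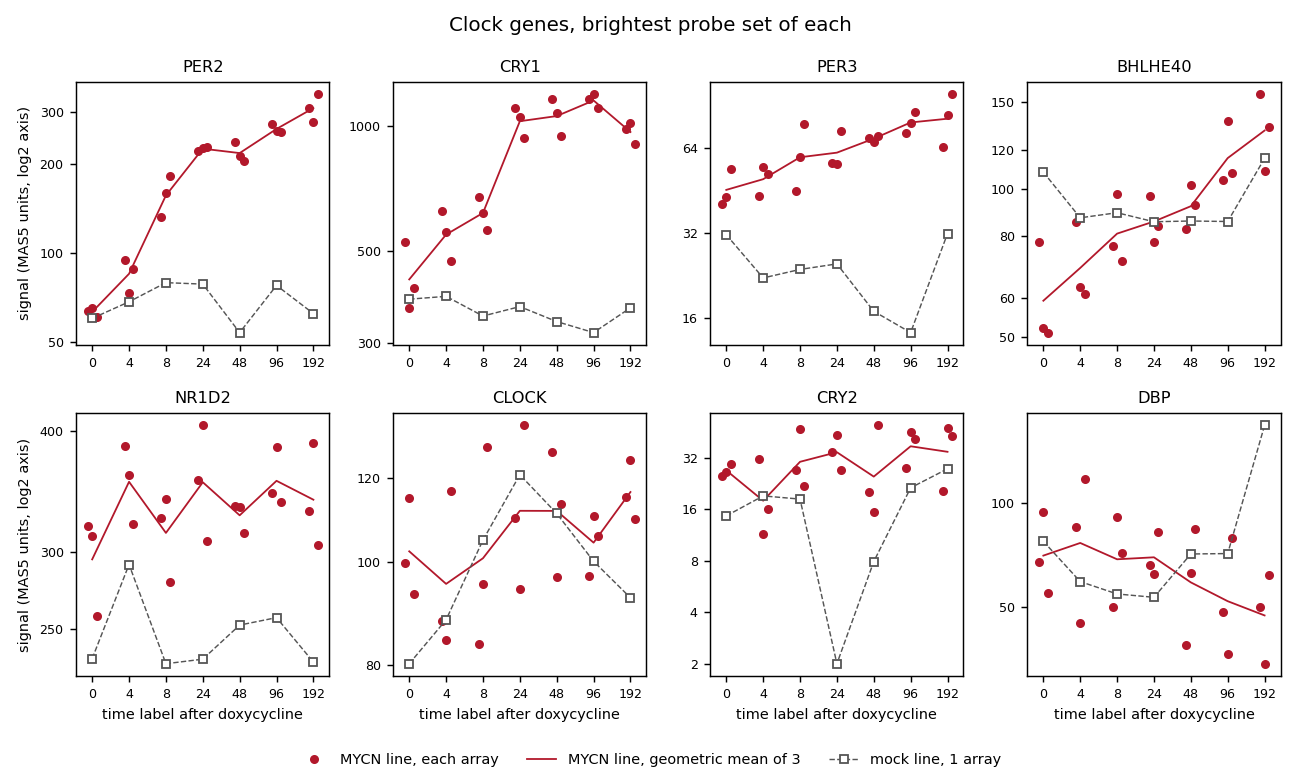
Signal on a log2 axis against the time label after doxycycline for the brightest single-gene probe set of 8 clock genes. Filled points are the 3 MYCN-line arrays of each time, the line their geometric mean, and open squares the 1 mock array of each time. PER2, CRY1, PER3 and BHLHE40 climb in the MYCN line, while NR1D2, CLOCK and CRY2 show no change that passed the test without a block, and the DBP mock array of time 192 stands at 168.2.

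Of the 10 members, 8 had a probe set annotated to that gene alone and all 8 passed the filter on dim genes, which leaves 7 to be tested beside PER2. No member was called at time 4, 1 of 7 was called at time 8 and at time 24, and 3 of 7 were called at each of times 48, 96 and 192, all of them higher than at time 0 and none lower. A call is a limma adjusted p under 0.05 over all tested genes. The share of all tested genes called higher was 0.00843%, 0.59%, 3.91%, 7.04%, 10.3% and 11.6% in the order of the times from 4 to 192. At time 4, limma gave 2 of the 7 an unadjusted p under 0.05. The median change over the 7 was 0.36 log2 units at time 192, beside -0.03 over all tested genes. All 3 arrays lay above those of time 0 for 1, 1, 2, 3, 4 and 3 of the 7 members over times 4 to 192, and below them for none. Among all tested genes the shares lying above were 4.14%, 7.25%, 12%, 12.3%, 15.7% and 16.5%. At time 192, all 3 arrays lay above all 7 mock arrays for 3 of the 7 (CRY1, PER3 and NR1D2), beside 21.1% of tested genes. CRY1 was the member called from time 8 on, and PER3 and BHLHE40 joined it from time 48.

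CRY1, the cryptochrome that partners PER2 in repression, rose from time 8 on. It read 524.2, 363.2 and 407.0 in the MYCN line at time 0. It read 621.8, 555.4 and 473.1 by time 4 and 674.8, 616.8 and 562.2 at time 8. By time 24 it read 1100.5, 1047.4 and 933.5, followed by 1161.1, 1070.9 and 942.7 at time 48. Later arrays read 1156.6, 1189.9 and 1103.8 (time 96) and 980.4, 1017.1 and 901.7 (time 192). From time 8 on, all 3 arrays were above those of time 0, and the arrays of time 192 lay below those of time 96. The mock arrays read 382.1, 388.1, 348.0, 366.7, 337.5, 317.5 and 364.2, all below every MYCN-line array from time 4 on. The log2 change was 0.53 at time 8 (adjusted p = 0.0482 by limma), 1.27 at time 24 (2.88e-06), 1.43 at time 96 (3.27e-07) and 1.18 at time 192 (1.89e-06), each with an SE of 0.12. At time 4 it was 0.36 (adjusted p = 0.598). Time 192 did not differ detectably from time 24, by -0.09 log2 units (adjusted p = 0.772). The call at time 8 was lost without replicate 1, 2 or 3 (adjusted p = 0.16, 0.862 and 0.106) and with equal array medians (0.456). Within replicates 1 and 2 the change was 1.30 at time 24 and 1.19 at time 192.

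PER3, the third period gene, was called higher from time 48 on by its bright probe set. Its bright probe set read 40.7, 43.1 and 54.1 in the MYCN line at time 0. By time 24 it read 56.9, 56.4 and 73.7, followed by 69.8, 67.3 and 71.0 at time 48. It read 72.6, 79.0 and 86.5 at time 96 and 65.0, 83.9 and 99.7 at time 192, so all arrays from time 24 on lay above those of time 0. The mock arrays read 31.6, 22.2, 23.8, 24.9, 16.9, 14.2 and 31.9, below every MYCN-line array already at time 0. The change was 0.44 log2 units at time 24 (limma adjusted p = 0.194), 0.60 at time 48 (0.0453), 0.80 at time 96 (0.00633) and 0.84 at time 192 (0.0037), with an SE of 0.20. Within replicates 1 and 2 it was 0.82 at time 192. The last 3 calls were lost without replicate 2, at adjusted p = 0.349, 0.157 and 0.123, and the first of them also without replicate 1 (0.239). Without replicate 2, limma called 2.03%, 6.63% and 11.2% of all tested genes at these times, in either direction. With all replicates, the shares called higher alone were 7.04%, 10.3% and 11.6%. The time 48 call was also lost with no filter on dim genes (limma adjusted p = 0.0819) and with the mean of the probe sets (0.236). Without probe sets whose names end in _s_at or _x_at it had 0.087, and 0.0568 in both fits over probe sets. A second, dimmer PER3 probe set read 28.1, 29.2 and 26.8 at time 192 against 21, 24.0 and 20.5 at time 0, a change of 0.36 with an adjusted p of 0.309 in a fit of limma over probe sets. This second probe set changed by 0.63 at time 48 (limma adjusted p = 0.0894) and by 0.24 at time 96 (0.532). The mean of the PER3 probe sets gave 0.25 at time 96 (limma adjusted p = 0.653) and 0.39 at time 192 (0.441).

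PER1, a period gene induced quickly by many stimuli, was read only by probe sets that the annotation also gives to the microRNA gene MIR6883, and 2 of these 4 passed the filter. They were tested in a limma fit over 25735 probe sets naming 1 or more genes, added after the data were seen, in which 4.31%, 9.45%, 16.2% and 18.6% of probe sets were called at times 24, 48, 96 and 192. The PER1 and MIR6883 probe set 202861_at read 41.8, 50.3 and 46.4 in the MYCN line at time 192, against 17.5, 13.3 and 5.0 at time 0. In between it read 24.1, 37.0 and 29.3 (time 24), 29.7, 58.2 and 47.6 (time 48), and 48.0, 64.9 and 45.0 (time 96). Its mock arrays read 18.0, 17.5, 4.3, 10.6, 13.7, 5.5 and 6.3, so all MYCN-line arrays from time 8 on were above all mock arrays. The mock readings of 4.3, 5.5 and 6.3 and the time 0 reading of 5.0 lie below that fit's filter of 10.1. The size of the change is therefore not firm for this probe set. It rose by 1.50 log2 units at time 24 (limma adjusted p = 0.036), by 2.05 at time 48 (0.00276), by 2.30 at time 96 (0.000511) and by 2.13 at time 192 (SE 0.40, 0.000804). With 16 added to each signal before log2, which damps such dim readings, the changes were 0.74, 1.13, 1.31 and 1.18 over times 24 to 192 (at the last, limma adjusted p = 0.000454). The change was 1.59 at time 192 and 0.97 at time 24 within replicates 1 and 2, where the time-24 call was lost (adjusted p = 0.173). At time 24 it was also lost without replicate 1 (0.0791) or replicate 2 (0.281), and at time 48 without replicate 2 (0.119). The other probe set, 36829_at, read 59.3, 83.8 and 88.0 at time 192 against 35.7, 56.9 and 48.7 at time 0, a rise of 0.71 (SE 0.19, limma adjusted p = 0.0113) that was lost without replicate 1, 2 or 3 (0.0645, 0.0834 and 0.0668). Its mock arrays read 54.8 at time 0 and 77.7 at time 192, and its trend did not differ detectably between the lines (difference 0.04 per time step, adjusted p = 0.65).

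CRY2, the second cryptochrome, was dim. It read 20.5, 47.4 and 42.5 in the MYCN line at time 192 against 25.1, 26.4 and 29.4 at time 0, with a change of 0.36 log2 units (SE 0.43, limma adjusted p = 0.59). Its mock arrays ranged from 2.0 to 27.5.

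CLOCK, the activator of the loop, read 115.1, 124.7 and 109.8 in the MYCN line at time 192 and 99.9, 115.0 and 93.4 at time 0, and 80.3 to 120.8 on the mock arrays. The groups overlapped, and the change was 0.18 log2 units (SE 0.17, limma adjusted p = 0.47). The F-test over the 6 times gave an adjusted p of 0.777. Of its other probe sets, 2 passed the filter and changed by 0.11 and 0.13 at time 192, without a call.

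NR1D1 and NR1D2 encode the REV-ERBα and REV-ERBβ repressors. The NR1D1 probe sets are also annotated to THRA, the thyroid hormone receptor gene that overlaps NR1D1 on the opposite strand, and 2 of the 3 passed the filter. The NR1D1 and THRA probe set 204760_s_at read 92.2, 70.7 and 116.6 in the MYCN line at time 192 against 44.6, 39.1 and 63.6 at time 0. It rose by 0.93 log2 units (SE 0.20, limma adjusted p = 0.0027), and without replicate 1 the adjusted p was 0.102. Its mock arrays were dim, at 9.2 at time 0 and 24.4 at time 192, and the difference in trend between the lines, 0.20 per time step, had an adjusted p of 0.261. The other, 31637_s_at, read 137.5, 129.2 and 195.8 at time 192 against 64.8, 81.4 and 99.6 at time 0, a rise of 0.91 (SE 0.21, limma adjusted p = 0.00428). Its mock arrays read 88.6 at time 192 against 71.5 at time 0, and the difference in trend, 0.08 per time step, had a limma adjusted p of 0.421. Without replicate 1 or replicate 2 this call was lost (0.0761 and 0.056). At time 8 it already read 113.2, 153.9 and 154.6, a change of 0.79 with a limma adjusted p of 0.139, or 0.00379 with the replicate number as a block. For both probe sets, all arrays of time 192 lay above those of time 0.

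NR1D2 had probe sets of its own. The first read 330.8, 388.9 and 305.0 in the MYCN line at time 192 against 318.9, 311.8 and 258.1 at time 0, so the groups overlapped, and the mock arrays ranged from 230.3 to 291.4. The change was 0.20 log2 units (SE 0.12, limma adjusted p = 0.238), and a second NR1D2 probe set gave 0.21. With the bioD sets as a block, NR1D2 was called higher at time 24 (0.26, limma adjusted p = 0.0392, or 0.205 without the block) and at time 96 (0.27, 0.0179, or 0.12 without it).

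BHLHE40 (DEC1), a repressor that competes for E-boxes, rose from time 48 on. It read 78.1, 52.1 and 51 in the MYCN line at time 0. By time 24 it read 96.8, 77.8 and 83.9, followed by 82.8, 101.8 and 92.9 at time 48. It read 104.1, 137.2 and 107.8 at time 96 and 155.7, 108.9 and 133.7 at time 192, with all arrays from time 48 on above those of time 0. The mock arrays read 108.1, 87.3, 89.4, 85.7, 86.0, 85.8 and 115.3, above the MYCN line at time 0 and overlapping it at time 192. The change was 0.54 log2 units at time 24 (limma adjusted p = 0.101), 0.64 at time 48 (0.0315), 0.96 at time 96 (0.00131) and 1.15 at time 192 (SE 0.19, 0.000221). It was 1.03 at time 192 within replicates 1 and 2. The call at time 96 was lost without replicate 2 (0.0783), and that at time 48 without replicate 2 (0.319) or 3 (0.169). The mean of its probe sets gave 1.25 at time 48 and 1.51 at time 96. The dimmer second BHLHE40 probe set, 201169_s_at, read 42.5, 20.2 and 19.9 at time 192 against 17.6, 8.4 and 2.5 at time 0. Of the arrays of time 0, 2 were below the filter of 10.1, so its fitted change has no firm size. Its F-test (limma adjusted p = 0.136) and difference in trend (0.169) were not called.

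DBP, an activator that follows the loop closely in rodent tissues, was the only member of the 7 whose fitted change at time 192 was below 0. Its bright probe set read 49.8, 34.1 and 61.6 in the MYCN line at time 192 against 67.4, 94.2 and 54.8 at time 0, and the groups overlapped. The change was -0.58 log2 units (SE 0.36, limma adjusted p = 0.263). The mock arrays read 77.4, 59.1, 54.4, 53.2, 71.1, 71.3 and 168.2, the last one far above the rest. A second, dimmer DBP probe set changed by 0.72 in the MYCN line (adjusted p = 0.382) and 2.18 between the mock arrays of times 192 and 0.

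**Figure D2:**
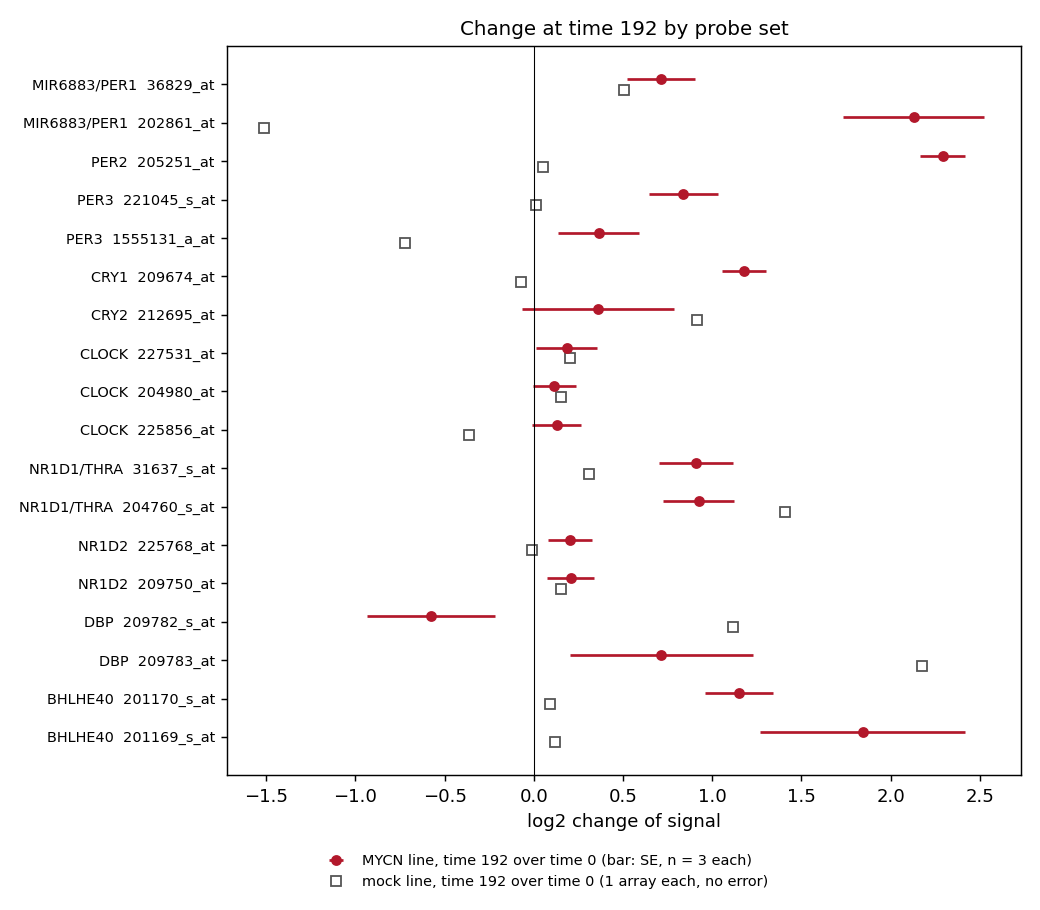
Log2 change of signal at time 192 over time 0 for the 18 clock gene probe sets that passed the filter. Filled points are the MYCN line with the standard error (n = 3 arrays at each time), and open squares the mock line from 1 array at each time. PER2 205251_at (2.29) and CRY1 209674_at (1.18) lie right of their mock squares (0.05 and -0.07), and the square of 202861_at rests on a mock signal of 6.3 at time 192, below the filter of 10.1. DBP 209782_s_at lies left of its own (-0.58 and 1.12).

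The F-test over the 6 times, which asks for any change in the MYCN line, called 3 of the 7 members (CRY1, adjusted p = 1.86e-07; BHLHE40, 0.00151; PER3, 0.0142), where 25.4% of all tested genes were called. Between time 192 and time 24, limma called none of the 7 (1 had an unadjusted p under 0.05), beside 4.62% of all genes. BHLHE40 changed by 0.61 log2 units over that span with an adjusted p of 0.0724, or 0.0359 with the bioD sets as a block, while for PER2 the value was 0.46.

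Doxycycline alone was followed in the mock line. The slope over its 7 arrays was called for 0 of 8 members by limma, with 0 at an unadjusted p under 0.05, beside 3.13% of all genes called. At that share, 0 of 8 does not set the members apart from other genes. DBP came nearest, with a mock slope of 0.15 log2 units per time step (limma unadjusted p = 0.0501). The difference in slope between the lines was called for 4 of 7 members, 3 with the higher slope in the MYCN line and 1 with the lower, beside 11.2% and 12.8% of all tested genes. For CRY1 the slope was 0.23 log2 units per time step in the MYCN line, against -0.03 for the mock arrays, a difference of 0.26 (SE 0.05, limma adjusted p = 0.000569). PER3 had slopes of 0.15 (MYCN line) and -0.06 (mock), a difference of 0.21 (SE 0.06, 0.0135), and BHLHE40 had 0.18 (MYCN line) and 0.01 (mock), a difference of 0.18 (SE 0.05, 0.00633). DBP had slopes of -0.11 in the MYCN line and 0.15 over the mock arrays, a difference of -0.26 (SE 0.09, adjusted p = 0.0355). Without the mock array of time 192 the DBP difference was -0.12 (adjusted p = 0.535), and it was also lost without the mock array of time 4 (0.0652) or 8 (0.0545) and without replicate 1 (0.0744) or 2 (0.112). Without the mock array of time 0 the limma adjusted p was 0.137 for PER3 and 0.0899 for BHLHE40, and for PER3 it was 0.0669 without that of time 96 and 0.0563 without replicate 2. Within replicate 3 and the mock arrays, which shared a bioD level, the differences were 0.27 for CRY1, 0.20 for PER3 (adjusted p = 0.117), 0.22 for BHLHE40 and -0.17 for DBP (adjusted p = 0.274). The PER1 and MIR6883 probe set 202861_at had a difference of 0.60 (SE 0.12, limma adjusted p = 0.000848), or 0.76 within those arrays and 0.31 with 16 added to each signal. In the fit over all arrays, 17.2% of probe sets were called. PER2, untested here, had slopes of 0.38 in the MYCN line and -0.00 over the mock arrays.

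**Figure D3:**
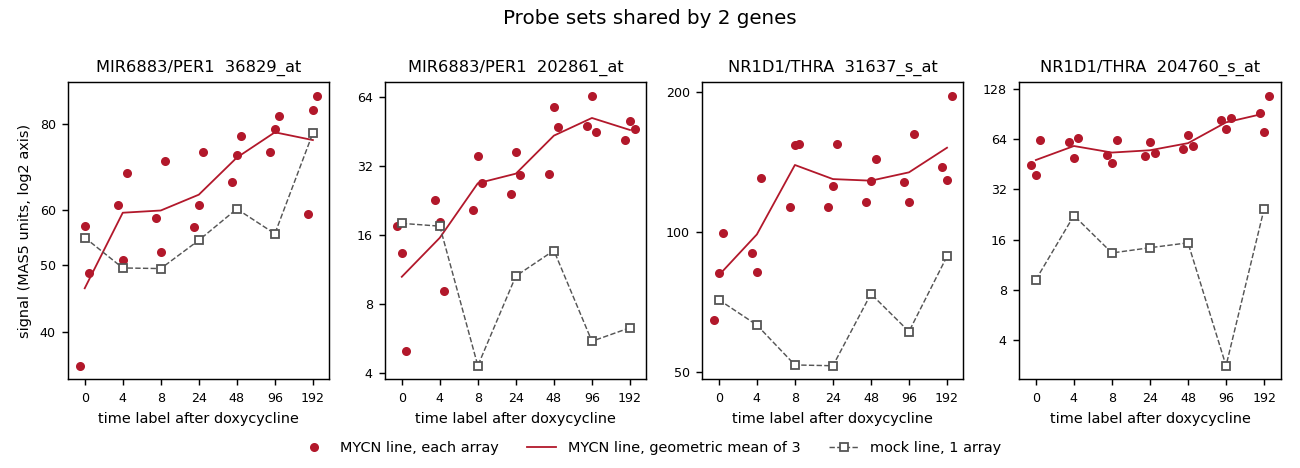
Signal on a log2 axis against the time label for the 4 probe sets annotated to PER1 and MIR6883 or to NR1D1 and THRA that passed the filter. Filled points are MYCN-line arrays with the line at their geometric mean, and open squares are single mock arrays. From time 8 on the MYCN-line arrays of 202861_at lie above all mock arrays (4.3 to 18.0), whereas the mock array of 36829_at reaches 77.7 at time 192.

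Of 27 further clock genes, 24 had a probe set of their own and 22 were tested. At time 192, limma called 4 of the 22 higher and 4 lower. The 4 higher were BHLHE41, SIRT1, CSNK1D and NAMPT, of which CSNK1D is unsettled, being called lower without probe sets whose names end in _s_at or _x_at (-1.18, limma adjusted p = 0.00272). As the mean of its probe sets it changed by -0.34 (0.415). The 4 lower were RORA, BMAL1, BMAL2 and NPAS2, among them the CLOCK partners BMAL1 and BMAL2 and the CLOCK relative NPAS2. At time 24 the counts were 2 higher and 1 lower, at time 48 they were 2 and 2, and at time 96 they were 5 and 4. Of these, the SIRT1 call at time 24 (limma adjusted p = 0.0468) was lost in 9 of 14 alternatives. At time 96 the DDB1 call (0.0348) was lost in 6 of 15. The CSNK1D call at time 96 (0.0391) was lost in 6 of 15 and turned round in 2 more. Of all tested genes, 3.27%, 7.67%, 13.2% and 14.1% were called lower at times 24, 48, 96 and 192. The median change of the 22 at time 192 was -0.01 log2 units, beside -0.03 over all genes.

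BMAL1, the partner of CLOCK, fell. In the MYCN line it ranged from 89.2 to 108.2 at time 0, from 28.7 to 31.4 at time 24, from 11.8 to 29.7 at time 96 and from 21.8 to 37.5 at time 192. The mock arrays stayed between 72.2 and 92.5. The log2 change was -1.73 at time 24 (limma adjusted p = 0.000478), -2.55 at time 96 (2.45e-06) and -1.91 at time 192 (3.87e-05), each with an SE of 0.27. These calls and the difference in slope from the mock line, -0.40 (SE 0.09, limma adjusted p = 0.00113), held under every alternative in which BMAL1 was tested. It was not tested without _s_at and _x_at probe sets or with the stricter filter. Within replicates 1 and 2 the change at time 192 was -1.85. RORA, which encodes an activator of BMAL1, ranged from 58.5 to 84.7 at time 192 against 239.2 to 261.8 at time 0, with 114.4 to 167.9 on the mock arrays. It was first called at time 48 (-1.30, limma adjusted p = 0.000333, or 0.0595 without replicate 2 and 0.0735 as the mean of its probe sets) and had fallen by 1.86 log2 units at time 192 (SE 0.21, 3.44e-06), or by 1.08 as the mean of its probe sets (0.0114).

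BHLHE41 (DEC2), the relative of BHLHE40, ranged from 134.0 to 183.1 in the MYCN line at time 192 against 18.5 to 40.7 at time 0, and from 39.1 to 62.6 on the mock arrays. Its log2 change was 0.70 at time 8 (limma adjusted p = 0.219, or 0.0397 with the replicate number as a block), 1.25 at time 24 (0.00247, or 0.141 without replicate 2) and 2.51 at time 192 (SE 0.23, 5.18e-07). The mean of its probe sets gave 0.47 at time 24 (limma adjusted p = 0.477) and 1.34 at time 192 (0.0053). It was also among the genes called between times 192 and 24, by 1.26 (limma adjusted p = 0.00436), a call lost without replicate 1 (0.0845) or 2 (0.0604) and with the mean of its probe sets (0.87, 0.151). SIRT1, a deacetylase that acts on clock proteins, ranged from 359.2 to 394.1 at time 192 against 245.4 to 268.3 at time 0, with 179.2 to 218.8 on the mock arrays, a rise of 0.56 (SE 0.09, limma adjusted p = 0.000124). DDB1, a subunit of ubiquitin ligases, changed by 0.24 at time 96 (limma adjusted p = 0.0348) and by 0.21 at time 192 (0.057, or 0.00879 with the replicate number as a block), and the call at time 96 was lost whichever replicate was left out (0.0632 to 0.303). CSNK1D, a kinase that phosphorylates PER proteins, ranged from 412.3 to 438.4 at time 192 against 277.8 to 347.6 at time 0 on its brightest probe set, a change of 0.48 (limma adjusted p = 0.0021, or 0.057 without replicate 1 and 0.0633 without replicate 2). Its probe sets disagreed in direction.

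**Figure D4:**
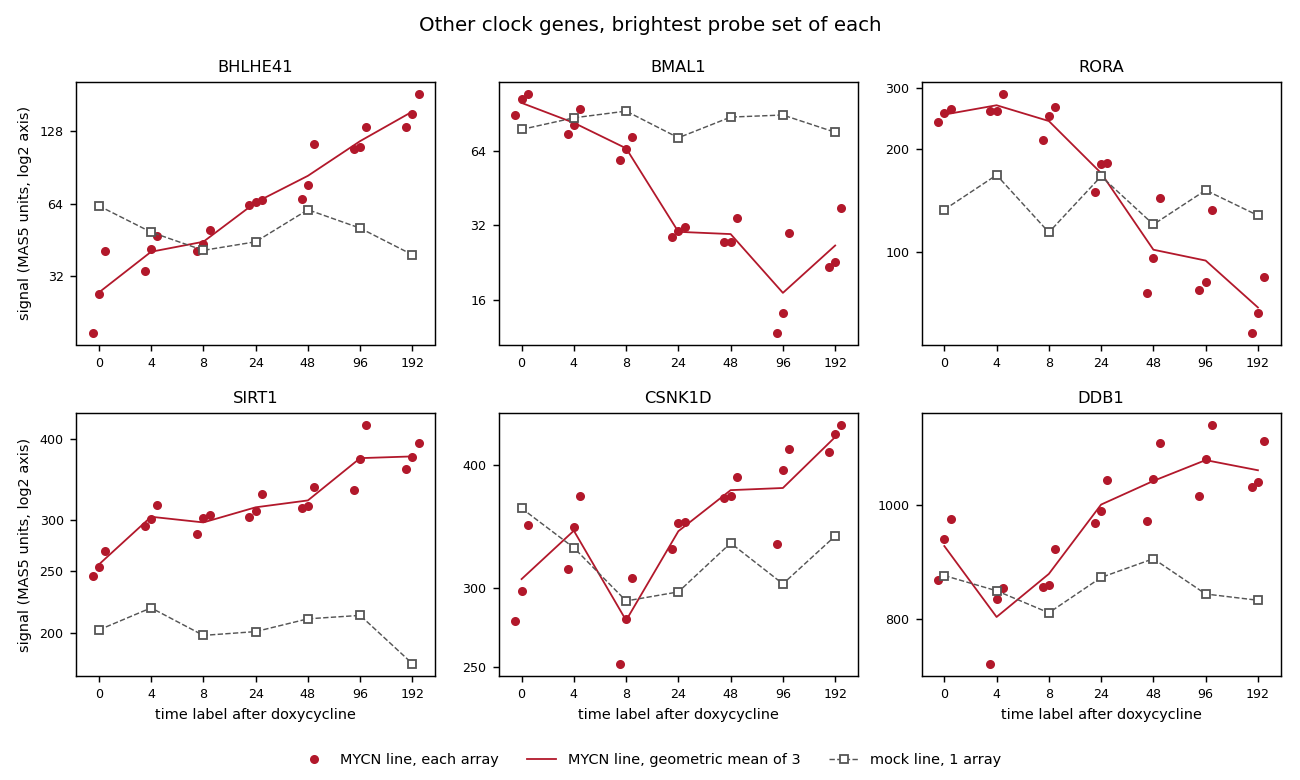
Signal on a log2 axis against the time label for the brightest probe set of 6 further clock genes, those with the smallest F-test p-values. Filled points are the 3 MYCN-line arrays of each time with the line at their geometric mean, and open squares the single mock arrays. BMAL1 and RORA go down in the MYCN line while BHLHE41 goes up, and the mock squares of BMAL1 stay between 72.2 and 92.5.

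The genes whose 6 changes from time 0 in the MYCN line were closest to those of PER2 were SLC7A5, SIK1, TAF4B, SLC6A15 and BHLHE41. Likeness was the root-mean-square difference of the 6 log2 changes, which was 0.26 for SLC7A5, 0.26 for SIK1, 0.29 for TAF4B, 0.29 for SLC6A15 and 0.37 for BHLHE41, beside a median of 1.76 over all tested genes. SLC7A5, an amino acid transporter, averaged 391.9 ± 70.7 at time 192 and 87.7 ± 30.4 at time 0 (SD, n = 3 each). SIK1, a salt-inducible kinase, averaged 202.9 ± 70.7 at time 192 and 41.0 ± 8.2 at time 0. TAF4B, a subunit of the general transcription factor TFIID, averaged 302.5 ± 24.6 at time 192 and 81.5 ± 8.6 at time 0. SLC6A15, another amino acid transporter, averaged 304.8 ± 16.6 at time 192 and 55.9 ± 2.8 at time 0, with mock arrays already at 88.2 to 150.9. The mock arrays of the other 3 ranged from 44.1 to 82.1 for SLC7A5, from 43.1 to 72 for SIK1 and from 69.8 to 87.8 for TAF4B. Among the 7 members tested beside PER2, CRY1 stood at place 43 in this order (0.68), BHLHE40 at 186 and PER3 at 309. The others stood far lower, with NR1D2 at 2296, CRY2 at 2443, CLOCK at 3818 and DBP at 9311 among the tested genes. The order is built on the PER2 values by which the set was chosen, and is given without a test.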

How the data were processed

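Total RNA of 28 samples was hybridised to Affymetrix arrays. The deposited values are intensity signals per probe set, which the authors made with MAS5 in GCOS, per the submitters' processing notes. The trimmed mean of every array was 100.01, leaving out 2% at either end, and array medians were 12.9 to 20.2. Before log2 was taken, 0.1, the smallest positive value, replaced the 91 values that were 0 or less. The precision is limited by the number of arrays. Of 54675 probe sets, 41091 named 1 gene, 1801 several and 11777 none (62 of all were controls). Each gene was read by its brightest single-gene probe set, and genes under the 40th percentile of mean signal (12.8) were left out, which left 11865 of 19775. limma 3.58.1 in R 4.3.3 compared each time with time 0 over the 21 MYCN-line arrays (14 residual degrees of freedom). The mock slope (5) and the difference in slope (24) used the order of the times as equal steps. p-values were adjusted by Benjamini-Hochberg over all tested genes, and the fits were tested on simulated data. The members and gene lists were chosen with earlier results of these data known. All members, MYCN, the 5 genes most like PER2 and the 6 further clock genes with the smallest F-test p-values were named. Same-numbered replicates deviated together, with every correlation over 0.1 against time 0, at times 4 (0.188 to 0.323), 8 (0.241 to 0.367) and 192 (0.129 to 0.226). At times 24, 48 and 96 only replicate 2 fell short of 0.1, with -0.0608, 0.0549 and -0.0248. Replicate 1 had 0.156, 0.320 and 0.216 at these times, and replicate 3 had 0.329, 0.280 and 0.122. Alternatives covered scaling, filter, offset, probe-set choice, blocks by replicate and by bioD level, the time scale, and leaving out each replicate number of the MYCN line or each mock array.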

Additional observations from a re-analysis of the deposited data

Results flagged for a closer look

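For 4 of the 7 clock genes tested, the slope over time differed between the MYCN line and the mock line by limma's test of the difference itself. It was higher in the MYCN line for 3 and lower for 1, beside 11.2% and 12.8% of all tested genes. The difference, in log2 units per time step, was 0.26 for CRY1, 0.21 for PER3, 0.18 for BHLHE40 and -0.26 for DBP, the MYCN line minus the mock line. The mock line has 1 array at each time, and the DBP difference is -0.12 without its time 192 array (adjusted p = 0.535). The PER3 call was lost without the mock array of time 0 (limma adjusted p = 0.137) or 96 (0.0669) and within replicate 3 and the mock arrays (0.117), and is 0.34 without the mock array of time 192. The BHLHE40 call was lost without the mock array of time 0 (0.0899).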

How the results depend on the processing

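The counts of called members at time 4 (0) and in the mock line (0) kept their value under every alternative run. At time 8 the 1 call was CRY1. The count became 0 with equal array medians, with no filter on dim genes and with the mean of all probe sets. It was also 0 without probe sets ending in _s_at or _x_at, in both fits over probe sets, and without any 1 replicate (0 to 0). For the MYCN line, leaving out replicate 3 is the same run as staying within replicates 1 and 2. At time 24 the count of 1 became 3 with the replicate block and 2 with the bioD sets as a block. At time 48 the 3 calls became 1 with no filter and 1 without _s_at and _x_at probe sets, and 1 to 2 without a replicate. At time 96 the 3 became 4 with the replicate block and 4 with the bioD sets as a block, NR1D2 being the addition. At time 96, at time 192 and in the F-test the 3 became 1 without _s_at and _x_at probe sets, and 1 to 3, 2 to 3 and 1 to 2 without a replicate. BHLHE40 has only _s_at probe sets, so it was not tested without them. The drop at times 48, 96 and 192, in the F-test and in the slopes includes this untested gene. Between times 192 and 24 the count of 0 became 1 with the replicate block and 1 with the bioD sets as a block. It stayed 0 to 0 without a replicate. Calls over all tested genes also rose with the blocks. At time 24, 3.91% were called higher and 3.27% lower without a block. With the replicate block 14.9% were called in either direction, and with the bioD sets 13.5%. At time 96 the shares were 10.3% higher and 13.2% lower without a block, then 33.1% and 32% with the blocks. Between times 192 and 24 they were 4.62%, 11.7% and 10.6%. Leaving out a replicate mostly lowered the calls over all tested genes. Without replicate 1, 2 or 3, 0.0337%, 0.0169% and 0.177% were called at time 8 in either direction. At time 48 the shares were 3.03%, 2.03% and 18.3%, and at time 192 they were 13%, 11.2% and 25%. The F-test called 7.22%, 5.79% and 24.9% in these runs, beside 25.4% with all replicates. The 4 differences in slope became 2 with a stricter filter, 1 with the mean of all probe sets, 1 without _s_at and _x_at probe sets, 2 within replicate 3 and the mock arrays, and 2 to 4 without a replicate or a mock array. The stricter filter left out PER3 and DBP, so their differences were not tested there. With the replicate block PER3 at time 24 had an adjusted p of 0.0461, NR1D2 0.0323 at time 24 and 0.0144 at time 96, and BHLHE40 0.0331 between times 192 and 24. CSNK1D turned round without _s_at and _x_at probe sets, to -1.06, -1.29, -1.57 and -1.18 at times 24 to 192 and -0.32 for the slope, and with the mean of its probe sets, to -0.50 at time 96, -0.34 at time 192 and -0.14 for the slope, so its probe sets disagree. With the mean of both probe sets PER2 changed by 0.04 at time 4, by 0.17 at time 8, by 1.61 at time 192 and by -0.24 between times 192 and 24, since its second probe set is dim. The differences in slope without single mock arrays and the fit over shared probe sets were added after seeing the data. Dim signals, such as CRY2 and the second DBP probe set, limit what small changes can be seen.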
